A study of Saccharomyces cerevisiae with 10 samples.

Results

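AGG-QC is a budding yeast strain that carries, on a multicopy plasmid, the arginine tRNA gene tR(UCU)B with its anticodon changed to CCU, so that the tRNA pairs with the AGG codon. It was compared here with WT-URA, the strain with the same plasmid and no tRNA gene. Both strains are S288C yeast, and both carry the plasmid pRS426 with its URA3 marker. All cultures of the series were grown to the same optical density, filtered and frozen in liquid nitrogen. For each strain the series holds 1 mRNA library (RNA selected by its poly(A) tail) and 1 library of ribosome footprints (the RNA stretches that ribosomes protect from RNase I). The comparison therefore rests on 4 of the 10 libraries, no value has a replicate error, and no difference below was tested across replicates. The study asked whether tRNA abundance alters elongation or translation efficiency, and with AGG-QC whether the body sequence of the tRNA does. The members are the genes listed for both strains with a footprint count of at least 2 to the power of 7 in each, URA3 (YEL021W) left out. They number 4155 of the 5070 genes listed for both strains and of the 5373 listed for any of the 5 strains. The third strain with the plasmid, AGG-OE, carries the natural AGG-decoding gene tR(CCU)J on it, and the other 2 strains, WT and ACA-K, have no plasmid. The paper names rich medium for its wild-type profiling and selection without uracil for making AGG-OE. It names no medium for the plasmid cultures, and the part of medium in the results was not tested.

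A tRNA delivers its amino acid to the ribosome when its anticodon pairs with the codon being read, and rare codons are read by tRNAs with few genes. In yeast, the supply of charged tRNA and of nutrients is coupled to gene expression through kinases that set the translation of the regulator Gcn4, the output of ribosome production and the programme of stress and storage genes. The mRNA signal of a gene measures its transcript, the footprints measure the ribosomes on it, and their ratio, translation efficiency (TE), measures ribosomes per transcript.

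Each measure was scaled to its total over the 5069 shared genes without URA3, so every value is a share of the library, given in parts per 1000000 (ppm), and a change of all genes together would not be seen. Differences are log2 ratios of AGG-QC over WT-URA, and a gene is counted as higher or lower where the ratio is 2-fold or more. For footprints, the 95% exact binomial interval is given in brackets. It covers counting error only, since reads amplified by PCR are not independent molecules. Its median width to either side was 0.18 on the log2 scale. Of the 5069 genes, 914 fell short of the footprint minimum in at least 1 strain. The 100 members just inside it had a median footprint ratio of 0.09 (middle 50% of genes -0.09 to 0.28), and the 100 genes just outside it 0.03 (-0.16 to 0.25). The mRNA signal has no known depth, so mRNA and TE ratios carry no interval.

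The URA3 check of the labels showed the marker in all 3 plasmid strains and in neither of the others. URA3 itself stood at 16339 ppm of footprints in WT-URA and at 3170 in AGG-QC, or 5.15-fold lower, with 5.25-fold less mRNA. The 2 strains thus differ in the level of the plasmid marker as well as in the tRNA gene, and its part in the results below was not tested. Genes of the a mating type were read in both strains (12612 and 9639 footprints over 7 genes in WT-URA and AGG-QC), while the alpha-specific and early meiosis genes had no member among the 4155. The 3 listed alpha-specific genes held 167 and 108 footprints. Total footprints were 8552107 in WT-URA and 6011287 in AGG-QC, and the mRNA signal summed to 70964586 and 97140732.

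Most genes differed little between the strains. The log2 ratio had a median of -0.03 and an SD across genes of 0.29 for mRNA, a median of 0.09 and an SD of 0.27 for footprints, and a median of 0.10 and an SD of 0.29 for TE. Within 2-fold lay 99.4% of the members for mRNA, 99.2% for footprints and 99.8% for TE. The mRNA was higher in AGG-QC for 25 genes (0.602% of all members) and lower for 2 (0.0481%). Footprints were higher for 31 genes (0.746%) and lower for 2 (0.0481%). TE was higher for 3 genes (0.0722%) and lower for 7 (0.168%). In mRNA and footprints the larger differences were thus mostly increases, and 18 genes were higher in both mRNA and footprints, 72.0% of the mRNA calls and 58.1% of the footprint calls. Of the 33 genes past 2-fold in footprints, 22 had an interval that lay wholly past it.

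**Figure D1:**
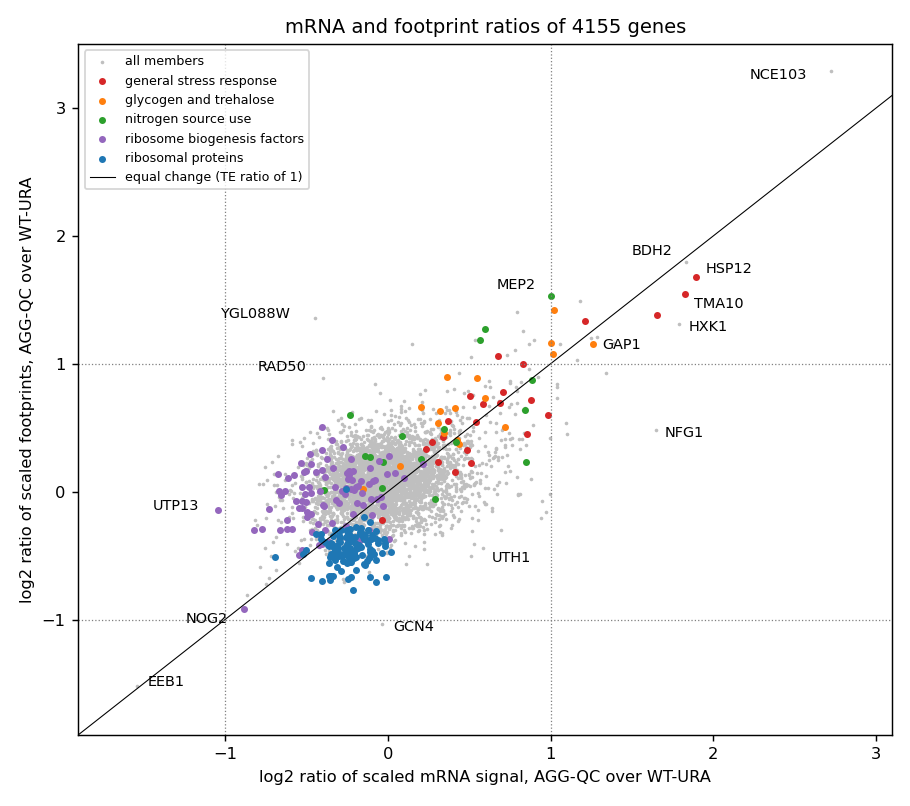
The log2 ratio of scaled mRNA signal (horizontal) and of scaled footprints (vertical), AGG-QC over WT-URA, for 4155 genes with 1 library per strain and assay. Dotted lines mark 2-fold and the diagonal an unchanged TE. NCE103 lies alone at the upper right (2.72 and 3.29), stress, glycogen and nitrogen genes reach past 2-fold on both axes, GCN4 lies below the cloud on footprints alone (-1.03), and the ribosomal proteins lie together below the diagonal.

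NCE103, the carbonic anhydrase that turns carbon dioxide into bicarbonate, differed most in mRNA and in footprints. Its mRNA signal was 80.0 ppm in WT-URA and 528 in AGG-QC. Its footprints numbered 303 in WT-URA and 2100 in AGG-QC, or 36.0 and 351 ppm. The log2 ratio was 2.72 for mRNA, 3.29 for footprints [3.11 to 3.46] and 0.56 for TE. The increase held in both parts of the gene, at 3.56 in the first 50% of the codons and 2.95 in the last 50%. The other plasmid strain, AGG-OE, stood beside WT-URA, with 34.8 ppm of footprints against 36.1 on the scale of the 4964 genes listed for all 5 strains. On that scale the strains without a plasmid had 116 (WT) and 399 (ACA-K) ppm of footprints, with 55.7 and 103 ppm of mRNA signal. AGG-QC had 352 ppm of footprints and 530 ppm of mRNA signal on this scale, so ACA-K came with a similar share of footprints and a smaller one of mRNA. PYC1, a pyruvate carboxylase that uses bicarbonate, had a log2 ratio of 1.04 in mRNA and 0.85 in footprints [0.75 to 0.94]. The 8 members of the list of carbonic anhydrase and carbon dioxide fixing enzymes had medians of -0.06 for mRNA and 0.12 for footprints, so the list as a whole was close to all members.

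**Figure D2:**
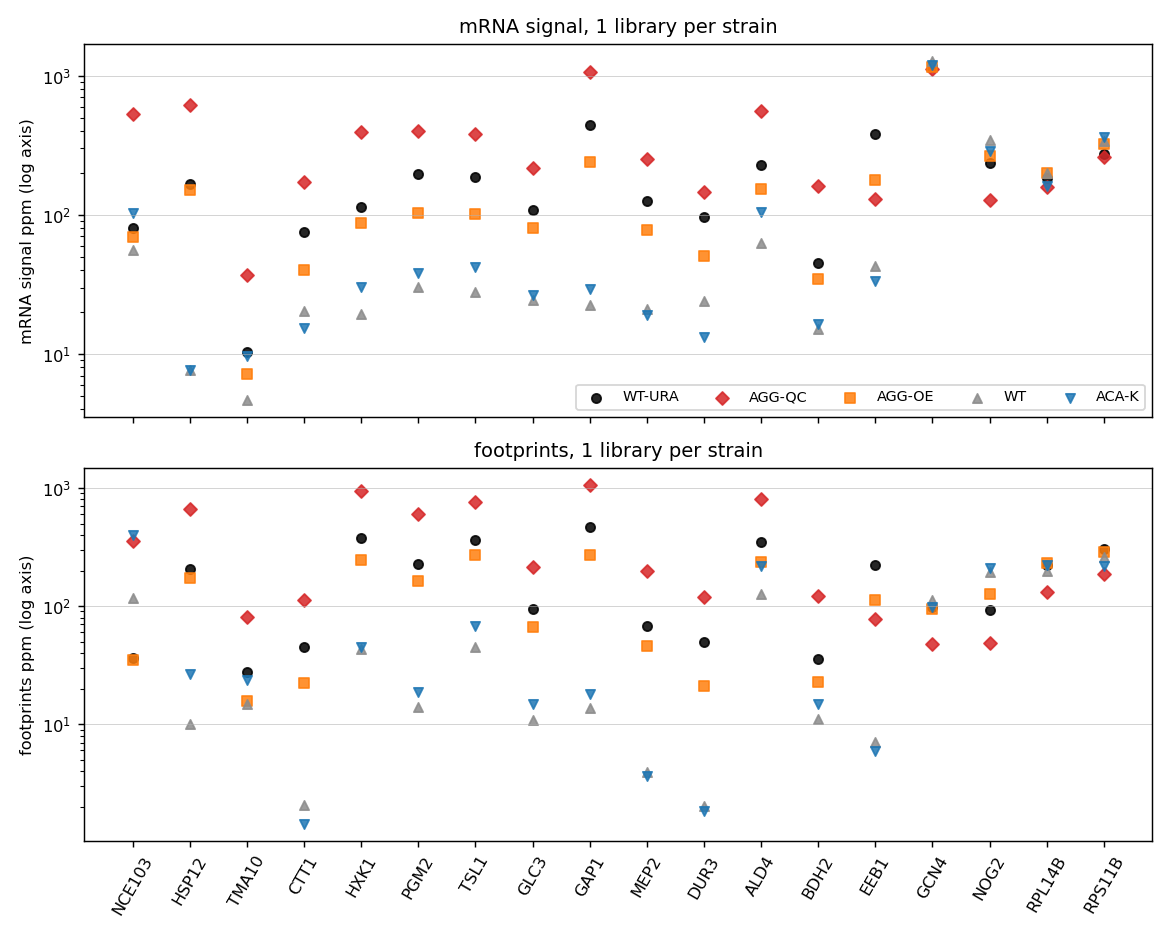
mRNA signal (top) and footprints (bottom) in ppm on log axes for 18 genes in the 5 strains, 1 library each, scaled to the 4964 genes listed for all strains without URA3. From HSP12 to BDH2 AGG-QC has the highest value of the 5 strains in both panels. For EEB1, NOG2, RPL14B and RPS11B it lies below WT-URA in both panels. For GCN4 it lies below WT-URA in footprints and close to it in mRNA.

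Genes of the general stress response, which yeast switches on through Msn2 and Msn4 when growth slows or conditions worsen, were higher in AGG-QC. Of the 33 genes of the list, 23 were members, 22 of them lay above the median gene in mRNA and 22 in footprints, and the list medians were 0.58 and 0.60. Past 2-fold were 4 genes in mRNA and 5 in footprints, against 0.602% and 0.746% of all members, and past 1.5-fold 11 and 12. Over all members the 1.5-fold shares were 3.13% higher in mRNA and 2.77% higher in footprints. HSP12, a small membrane-stabilising stress protein, had 1728 footprints in WT-URA and 3931 in AGG-QC, 205 and 658 ppm. Its log2 ratio was 1.90 for mRNA and 1.68 for footprints [1.60 to 1.76]. TMA10 had 232 and 482 footprints and a footprint ratio of 1.55 [1.32 to 1.78]. DDR2, a gene induced by many stresses, had 236 and 438 footprints and a ratio of 1.38 [1.15 to 1.62]. CTT1, the cytosolic catalase, went from 44.9 to 113 ppm of footprints, a ratio of 1.33 [1.15 to 1.52]. The transcription factor genes MSN2 and MSN4 themselves had mRNA ratios of 0.31 and 0.34. GPP1, a glycerol phosphatase, was the lowest of the list in footprints at -0.22. The median TE ratio of the list was 0.01, against 0.10 over all members, so its ribosomes and its transcripts were higher by about the same amount.

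The genes of glycogen and trehalose, the storage carbohydrates of yeast, showed the same direction. Of the 20 genes listed, 17 were members, with medians of 0.42 in mRNA, 0.65 in footprints and 0.16 in TE, and 16 of the 17 lay above the median gene in footprints. Past 2-fold were 4 in mRNA and 4 in footprints, against 0.602% and 0.746% of all members. PGM2, the phosphoglucomutase that feeds glucose into storage, had 1892 footprints in WT-URA and 3605 in AGG-QC, 225 and 603 ppm, a ratio of 1.42 [1.34 to 1.504]. GLC3, the glycogen branching enzyme, had 94.5 and 212 ppm of footprints, a ratio of 1.16 [1.03 to 1.29]. GPH1, the glycogen phosphorylase that breaks the store down, had 101 and 225 ppm, a ratio of 1.15 [1.03 to 1.28]. TSL1, a subunit of trehalose synthase, had 360 and 760 ppm, a ratio of 1.08 [1.01 to 1.14]. Enzymes of synthesis and of breakdown were therefore higher together. PGM1, the minor phosphoglucomutase, was the lowest member at 0.02 in footprints.

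Genes for the use of other nitrogen sources, which are held down while good nitrogen sources last, were the third such group. Of the 27 genes listed, 17 were members and their medians were 0.29 in mRNA, 0.39 in footprints and 0.26 in TE. Past 2-fold in footprints were MEP2, DUR3 and DUR12, 3 of the 17 against 0.746% of all members. MEP2, a high-affinity ammonium permease, had 573 footprints in WT-URA and 1173 in AGG-QC, 68.1 and 196 ppm, a ratio of 1.53 [1.38 to 1.67]. DUR3, the urea transporter, had 49.1 and 119 ppm of footprints, a ratio of 1.27 [1.10 to 1.45], and DUR12 (DUR1,2), the urea amidolyase, had 305 and 695, a ratio of 1.19 [1.12 to 1.26]. The mRNA ratio was 1.004 for MEP2, 0.60 for DUR3 and 0.57 for DUR12, so in these 3 genes the footprints were further apart than the mRNA. GAP1, the general amino acid permease, listed with the permeases, had 464 and 1064 ppm of footprints and ratios of 1.25 in mRNA and 1.20 in footprints [1.14 to 1.26]. The other members were mixed. MEP3, the low-affinity ammonium permease, had 0.85 in mRNA and 0.23 in footprints, and the activator genes DAL81 and UGA3 stood at -0.06 and 0.01 in footprints.

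Autophagy and vacuolar protease genes, which recycle cell contents, lay above the median gene in footprints in 16 of 17 members, with medians of 0.40 in mRNA and 0.35 in footprints and none past 2-fold. PRB1 and PEP4, the main vacuolar proteases, had mRNA ratios of 0.76 and 0.52 and footprint ratios of 0.37 [0.31 to 0.43] and 0.36 [0.32 to 0.41]. Further genes among the largest increases were HXK1, a hexokinase that is repressed by glucose, with 376 and 936 ppm of footprints in WT-URA and AGG-QC and a ratio of 1.31 [1.25 to 1.38], ALD4, the mitochondrial aldehyde dehydrogenase, with 349 and 809 and a ratio of 1.21 [1.15 to 1.28], and BDH2, a putative butanediol dehydrogenase, with 35.3 and 122 and a ratio of 1.79 [1.60 to 1.99]. HXT2, a high-affinity glucose transporter, had an mRNA ratio of 1.34 and a footprint ratio of 0.93 [0.82 to 1.04]. YFR052C-A, which has no RefSeq entry and is numbered next to HXK1 (YFR053C), had an mRNA ratio of 1.39 and a footprint ratio of 1.16 [0.96 to 1.37]. Nearly all of its footprints lay in the first 50% of its codons, 307 in WT-URA and 491 in AGG-QC, and the last 50% held 2 and 1, too few for a ratio there to be read.

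Of the 4155 members, 38 were higher in mRNA or footprints. Of these 38, 12 belonged to the stress, glycogen and trehalose or nitrogen lists, which hold 57 members. In all, 21 of the 38 were in any of the lists, which together hold 1465 members, and 17 were in none. The lists were written with earlier results of these data known. In AGG-OE over WT-URA, which shares the control, these lists had medians below 0. They were -0.43 in mRNA and -0.43 in footprints for the stress list, -0.43 and -0.41 for glycogen and trehalose, and -0.20 and -0.24 for nitrogen sources. With AGG-QC set against AGG-OE itself, the medians were 1.05 and 0.97, 0.78 and 1.14, and 0.54 and 0.52. HSP12 had 206 ppm of footprints in WT-URA, 660 in AGG-QC and 171 in AGG-OE on the scale of all 5 strains, and 9.95 in WT and 26.6 in ACA-K. GAP1 had 465, 1067 and 273 in the same 3 plasmid strains and 13.7 and 17.9 in the others. The plasmid strains thus held more of both transcripts' footprints than the strains without a plasmid, and AGG-QC the most. These libraries also differed otherwise. In genes over 200 codons, the first 20 codons held 11.2% to 12.7% of footprints in the plasmid strains. In WT and ACA-K they held 4.58% and 4.72%. The plasmid therefore cannot be told apart from other differences between these libraries.

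**Figure D3:**
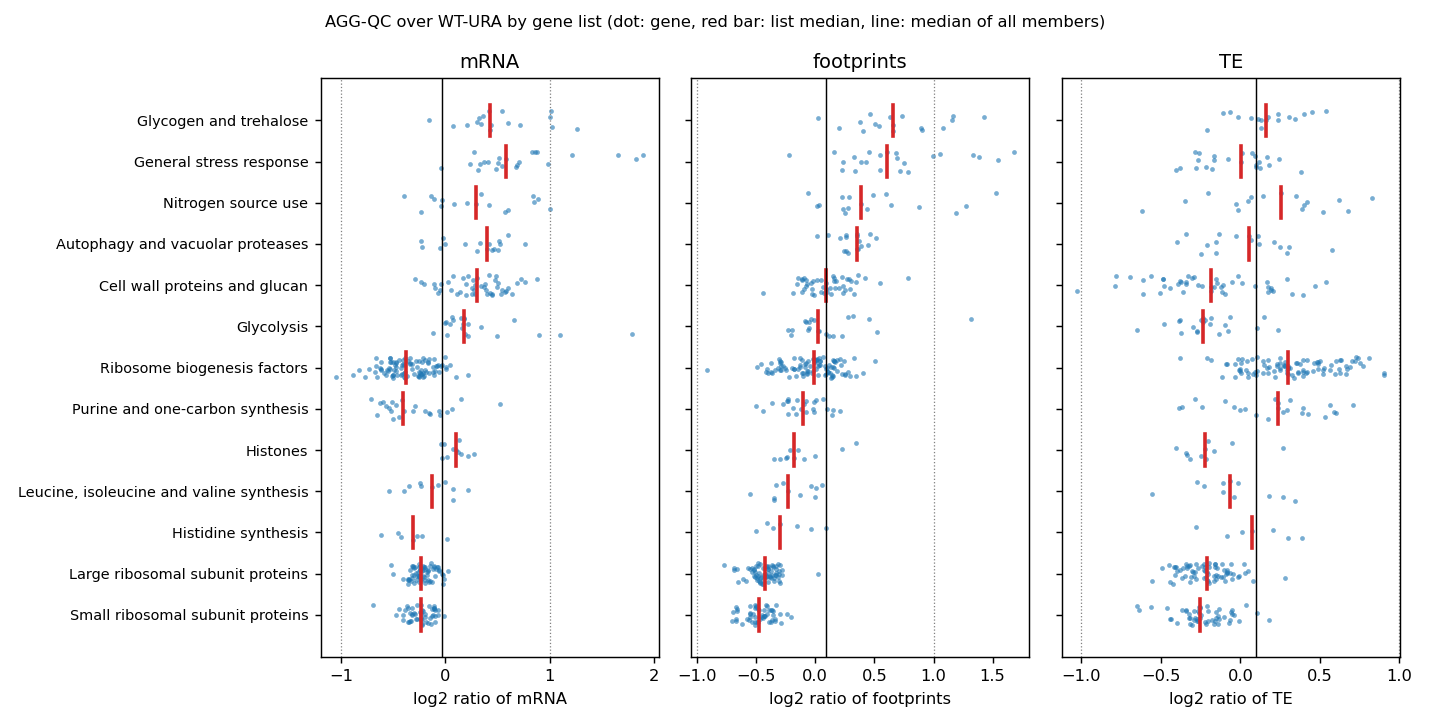
log2 ratios of AGG-QC over WT-URA in mRNA, footprints and TE for the 13 gene lists with 5 or more members and a median at least 0.3 from that of all members in any measure. Each dot is a gene, red bars are list medians, the solid line is the median of all 4155 members and dotted lines mark 2-fold. Stress, glycogen and nitrogen genes lie to the right in mRNA and footprints, and ribosomal proteins form narrow clouds to the left in footprints.

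The cytosolic ribosomal proteins, which form the core of the ribosome and are made in proportion to growth, were lower in AGG-QC in a narrow range. All 71 members of the large subunit and all 53 of the small subunit lay below the median gene in footprints, with medians of -0.43 and -0.48, and the mRNA medians were -0.23 and -0.23. No gene of either list was past 2-fold. Past 1.5-fold lower in footprints were 7 and 8 of them, where 0.626% of all members were. Together the 124 genes held 12.9% of the footprints in WT-URA and 9.66% in AGG-QC, and 13.4% and 11.5% of the mRNA signal. The lowest in footprints was RPL14B, with 1886 and 787 footprints, 224 and 132 ppm, a ratio of -0.77 [-0.89 to -0.65]. RPS11B had 2530 and 1104 footprints and a ratio of -0.70 [-0.81 to -0.60]. RPL15B was the highest of them at 0.02 [-0.23 to 0.27]. Many of these genes come in near-identical pairs. Uniquely mapped reads cover them unevenly, so the split between copies is uncertain, and 14 of the 138 listed genes were not members. In AGG-OE over WT-URA the medians of the same genes were 0.03 and 0.02 in footprints.

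Ribosome biogenesis factors, which process ribosomal RNA and assemble the subunits, were lower in mRNA and nearer to other genes in footprints. Of 98 genes, 96 were members. Their median was -0.38 in mRNA, -0.01 in footprints and 0.30 in TE, where all members had -0.03, 0.09 and 0.10. In footprints, 64 lay below the median gene and 1 was past 1.5-fold lower. In mRNA, 89 lay below the median gene, 1 was past 2-fold lower and 14 past 1.5-fold lower, against 1.47% of all members. In TE, 19 were past 1.5-fold higher, against 4.16% of all members. UTP13, a subunit of the complex that processes the small-subunit RNA, had 149 ppm of mRNA signal in WT-URA and 72.0 in AGG-QC, a ratio of -1.05, while its footprints went from 610 to 392, a ratio of -0.15 [-0.33 to 0.04]. RRP12, an export factor of pre-ribosomes, had -0.40 in mRNA, 0.50 in footprints [0.37 to 0.64] and 0.91 in TE. NOG2, a GTPase of large-subunit assembly, was lower in both, with 773 and 291 footprints, ratios of -0.89 in mRNA and -0.92 in footprints [-1.12 to -0.72]. The gene of a small nucleolar RNA lies inside NOG2. The same list was higher in AGG-OE over WT-URA, with medians of 0.41 in mRNA and 0.48 in footprints.

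GCN4, the activator of amino acid synthesis genes, whose own translation is set by short reading frames in its leader, had like mRNA in both strains and fewer footprints in AGG-QC. The mRNA signal was 1149 ppm in WT-URA and 1122 in AGG-QC, a ratio of -0.03. Footprints numbered 826 and 287, or 98.2 and 48.0 ppm, a ratio of -1.03 [-1.23 to -0.84]. The TE ratio was -0.999, just short of 2-fold. The footprint ratio was -1.08 in the first 50% of the codons and -0.99 in the last 50%. On the scale of all 5 strains, its footprints per unit of mRNA signal were 0.0427 in AGG-QC and between 0.0817 and 0.0891 in the other 4 strains, so AGG-QC was the library apart. Footprints in the leader were not analysed here.

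**Figure D4:**
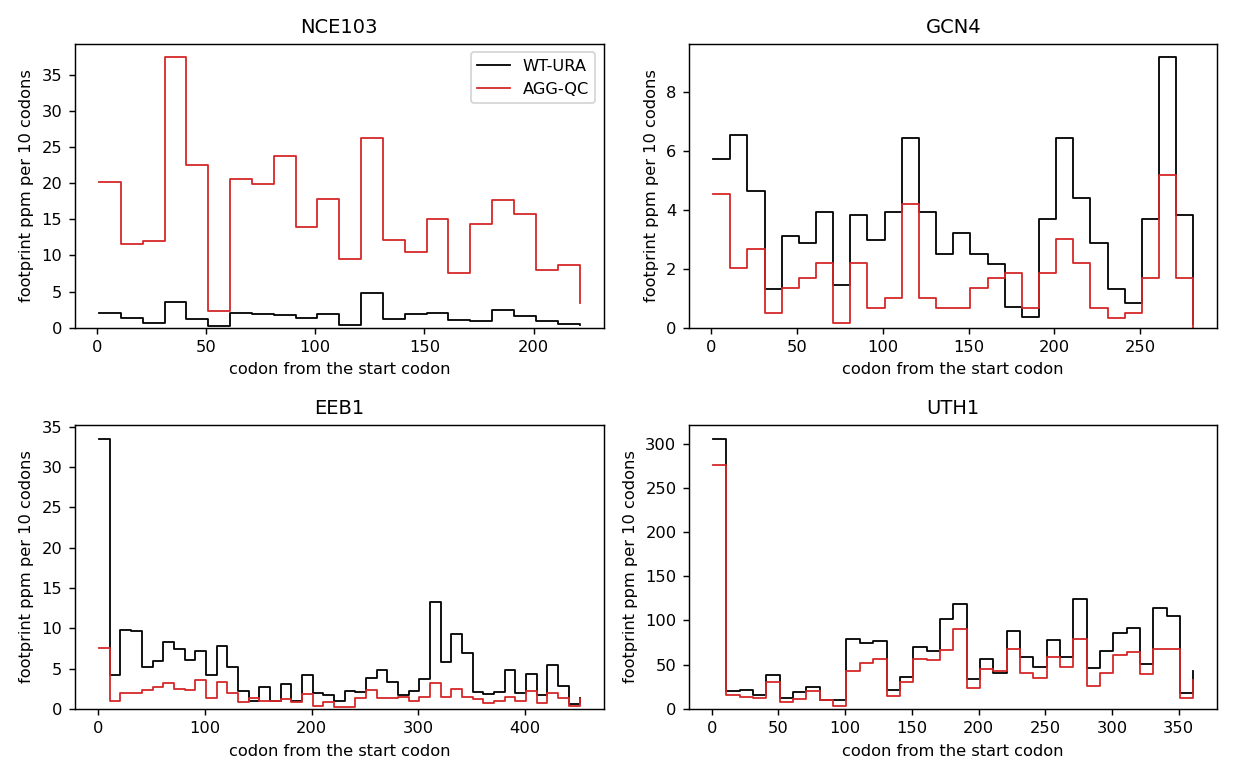
Footprints in ppm in bins of 10 codons along 4 genes, from the start codon, in WT-URA (black) and AGG-QC (red), 1 library each. NCE103 is higher in AGG-QC and GCN4 and EEB1 lower along most of their length. UTH1 is nearly equal over its first codons and lower in AGG-QC further on.

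Several of the lists of amino acid synthesis, which hold many Gcn4 targets, were slightly lower. The 7 histidine genes had medians of -0.31 in mRNA and -0.30 in footprints, and 6 lay below the median gene in each. HIS4, a histidine enzyme that acts at several steps, had 853 ppm of footprints in WT-URA and 643 in AGG-QC, a ratio of -0.41 [-0.47 to -0.35]. All 11 members for leucine, isoleucine and valine lay below the median gene in footprints, with a median of -0.23. LEU9, a minor isopropylmalate synthase, was the lowest at -0.55 [-0.77 to -0.34], and ILV5, of valine and isoleucine synthesis, had -0.35 [-0.38 to -0.32]. The lists for arginine and lysine had medians of -0.16 and -0.18 in footprints and none past 2-fold. The arginine list also holds breakdown genes. Of its 11 members, 2 were past 1.5-fold higher and 1 lower in mRNA, against 3.13% and 1.47% of all members. In footprints 1 was higher and 1 lower, against 2.77% and 0.626%. The other such lists lay closer to all members in footprints. Methionine, cysteine and sulfate genes had medians of -0.20 in mRNA and -0.11 in footprints over 19 members, 16 of them below the median gene in footprints. The aromatic amino acid list, which also holds breakdown genes, had -0.17 and -0.05 over 16 members. In footprints 11 of these lay below the median gene and 2 were past 1.5-fold higher. The list from serine to asparagine synthesis had -0.03 and -0.08 over 22 members, 11 above and 11 below the median gene in mRNA. In footprints 6 of these lay above the median gene and 16 below, and 2 were past 1.5-fold higher. Purine and one-carbon genes were lower in mRNA, with a median of -0.40 over 24 members, 4 of them past 1.5-fold lower against 1.47% of all members, and a footprint median of -0.11. IMD4, an IMP dehydrogenase with near-identical copies, had -0.72 in mRNA and -0.50 in footprints. The small nucleolar RNA gene SNR54 overlaps IMD4 in RefSeq. ADE2, of purine synthesis, had -0.50 in mRNA and 0.21 in footprints [0.11 to 0.31].

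The largest decrease in both measures belonged to EEB1, an acyltransferase that makes ethyl esters. Its mRNA signal was 380 ppm in WT-URA and 131 in AGG-QC. Its footprints numbered 1869 and 463, or 222 and 77.5 ppm, a ratio of -1.52 [-1.67 to -1.37], with a TE ratio of 0.02. AGG-OE also lay below WT-URA, with ratios of -1.09 in mRNA and -0.97 in footprints, so WT-URA was the highest of the 3 plasmid strains, and WT and ACA-K had 7.11 and 5.98 ppm of footprints. YGR079W and YMC2, a mitochondrial carrier, had footprint ratios of -0.81 [-1.11 to -0.51] and -0.72 [-1.01 to -0.44]. SSB1, a ribosome-bound Hsp70 with a near-identical copy, had -0.70 [-0.77 to -0.63]. YHB1, the flavohaemoglobin that removes nitric oxide, had -0.79 in mRNA and -0.59 in footprints [-0.65 to -0.53].

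Fewer genes were past 2-fold in TE than in mRNA or footprints, while past 1.5-fold 173 were higher and 53 lower in TE. The 7 genes with lower TE were NFG1, AIM19, SNA2, UTH1, OST4, SRL1 and YOR248W, the last without a RefSeq entry and numbered next to SRL1 (YOR247W). UTH1, a cell wall protein, had 394 ppm of mRNA signal in WT-URA and 590 in AGG-QC, and 19554 and 10242 footprints, a footprint ratio of -0.44 [-0.47 to -0.41] and a TE ratio of -1.02. SRL1, a cell wall mannoprotein, had 216 and 431 ppm of mRNA signal and footprints of 534 and 527 ppm, a TE ratio of -1.01. NFG1 had 9.10 and 28.5 ppm of mRNA signal and a footprint ratio of 0.49 [0.21 to 0.76]. In UTH1 and SRL1 the mRNA was thus higher and the footprints were not, while in NFG1 the footprints were higher by less than the mRNA. AIM19 and SNA2 had TE ratios of -1.15 and -1.13 at footprint ratios of -0.21 and -0.16, and OST4, a short subunit of the oligosaccharyltransferase, -1.02 at a footprint ratio of -0.51 [-0.69 to -0.32]. The 3 genes with higher TE were YGL088W, RAD50 and OPT2. RAD50, of the double-strand break repair complex, had 143 and 188 footprints and a TE ratio of 1.29. OPT2, an oligopeptide transporter homologue, had 201 and 318 footprints and an mRNA ratio of 0.15, with a TE ratio of 1.004. YGL088W overlaps the small nucleolar RNA gene SNR10 in RefSeq. Its footprint ratio was 1.35 [1.24 to 1.47] over the whole gene and 1.30 in the last 50% of its codons, where 889 and 1605 of its footprints lay. Past the first 100 codons it had 3 and 2 footprints, too few for a ratio to be read. Reads of the 2 overlapping genes cannot be told apart. On the scale of all 5 strains, YGL088W had 107 ppm of footprints in WT-URA, 273 in AGG-QC and 387 in AGG-OE. WT had 1702 and ACA-K 1571, so WT-URA was the lowest of the strains.

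Cell wall and glycolysis genes were higher in mRNA without more footprints. The 47 cell wall members had medians of 0.31 in mRNA, 0.09 in footprints and -0.19 in TE. Lower TE past 1.5-fold was found for 6 of them, against 1.28% of all members. CCW12, an abundant mannoprotein, had 5163 and 6932 ppm of mRNA signal and 7340 and 6952 ppm of footprints, a TE ratio of -0.50. CCW14 and TIP1, both mannoproteins, had TE ratios of -0.79 and -0.69. The 21 glycolysis members had medians of 0.18 in mRNA, 0.03 in footprints and -0.23 in TE. TDH3, the main glyceraldehyde-3-phosphate dehydrogenase, had 0.35 in mRNA and -0.03 in footprints, and its close relative TDH1 0.66 and 0.28. Those past 2-fold were HXK1 in both measures and PYK2, the minor pyruvate kinase, in mRNA at 1.10. The 11 histone genes had a median TE of -0.22, with 10 below the median gene.

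TE moved with gene length. In the shortest of 5 length bins (26 to 220 codons) the median TE ratio was -0.12, and in the longest (749 to 3269 codons) 0.32. The mRNA medians of the same bins were 0.04 and -0.13 and the footprint medians -0.05 and 0.19. Across the 4155 genes Spearman's rho with length was 0.49 for TE, 0.34 for footprints and -0.23 for mRNA. Genes are not independent replicates, and TE shares its mRNA value with the mRNA ratio. In AGG-OE over WT-URA the median TE ratio was -0.12 in the shortest bin and 0.10 in the longest. The ribosomal protein and histone genes are short, with median lengths of 139, 144 and 133 codons. With each gene set against the median of its own length bin, the TE medians were -0.11 for the large and -0.14 for the small ribosomal subunit, -0.11 for the histones, -0.34 for glycolysis, -0.34 for the cell wall and 0.17 for ribosome biogenesis. Against all members they were -0.31, -0.35, -0.32, -0.33, -0.29 and 0.20. In footprints the 2 ribosomal lists had -0.40 and -0.45 within length bins against -0.51 and -0.56 from all members, and the stress list 0.56 against 0.51. Within length bins the TE medians of the ribosomal proteins and histones were thus nearer to those of other genes, while those of glycolysis and the cell wall were not. Among the genes past 2-fold lower in TE, OST4 (37 codons), SNA2 (80), YOR248W (101), AIM19 (158), NFG1 (162) and SRL1 (211) fell in the shortest bin. UTH1, with 366 codons, did not. Among those past 2-fold higher, RAD50 (1313 codons) and OPT2 (878) fell in the longest bin and YGL088W (122) in the shortest. The part of length in single genes was not tested.

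**Figure D5:**
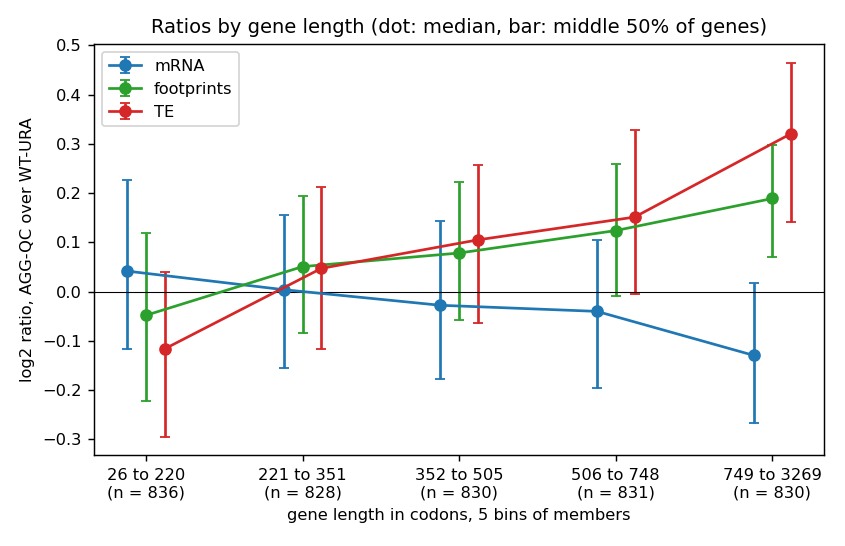
Median log2 ratio of AGG-QC over WT-URA in mRNA, footprints and TE for the members in 5 bins of gene length, with bars for the middle 50% of genes. The TE median goes from -0.12 in the shortest to 0.32 in the longest bin, while mRNA goes from 0.04 to -0.13.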

How the data were processed

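Reads were mapped by the authors to assembly R63 of the yeast genome (the submitters' processing notes name Bowtie 1.0.0) and those with a unique position were kept. Genes with thin mRNA coverage or no footprints were dropped, and a raw footprint count for every codon and gene was deposited. The mRNA signal was summed over each gene by the authors before it was deposited, in a unit the files leave unnamed, and is used here as a relative signal. Here each measure was divided by its total over the genes shared by the 2 strains without URA3, with no pseudocount. TE is scaled footprints over scaled mRNA signal. Genes with a footprint count of at least 2 to the power of 7 in both strains were kept. Footprint intervals are 95% exact binomial (Clopper-Pearson) intervals of the ratio. With 1 library per strain and assay no test was possible, and lists are described by counts and medians beside those of all members. Total footprints were 8552107 in WT-URA and 6011287 in AGG-QC.

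Named genes are URA3, the 10 highest and the 10 lowest members in each measure, up to 4 members of each list with 4 or more members that lie farthest from the median, and any member of a list described in full. A list was described in full where it had 5 or more members and its median lay at least 0.3 on the log2 scale from that of all members in any measure. After values were seen, RPP1 and TSL1 were taken out of 1 list each, the large ribosomal subunit and DNA repair, where they did not belong. The members, the 67 lists and this rule were chosen with earlier results of these data known. Names came from RefSeq (assembly R64), where 4138 of the 4155 members had an entry, and it served for names and overlapping genes only. Codon sequences were not used, so values at AGG codons were not analysed here. The alternatives tried were median scaling, a total without the top genes, other footprint minimums, a 1.5-fold limit, parts of the coding sequence, leaving out the 25% of members with least mRNA, AGG-OE as the reference and, added after seeing the data, each gene against its length bin. The ratio calculation was tested on simulated data. Python 3.11.15, numpy 2.4.6, pandas 2.3.3, scipy 1.17.1 and matplotlib 3.10.9 were used.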

Additional observations from a re-analysis of the deposited data

How the results depend on the processing

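Scaling by the median gene or by a total without the top 10 genes of each measure left all 6 counts within 1.5 times, and so did leaving out the highest codon of each gene. With AGG-OE in place of WT-URA, 97 genes were higher and 35 lower in mRNA, 93 and 7 in footprints, and 3 were lower in TE. Of the 25 genes higher in mRNA against WT-URA, 22 were also higher by 2-fold against AGG-OE, and of the 31 higher in footprints 28 of the 29 with a value. Of the 2 genes lower in mRNA 1 was still past 2-fold, of the 2 lower in footprints 0, of the 7 lower in TE 3, and of the 3 higher in TE 0 of the 2 with a value. At 1.5-fold, 130 genes were higher and 61 lower in mRNA, 115 and 26 in footprints, and 173 and 53 in TE. At a footprint minimum of 2 to the power of 9, which left 1914 genes, 13 were higher and 0 lower in mRNA, 17 and 0 in footprints, and 1 and 3 in TE. At a minimum of 32 footprints, 6 were lower in mRNA and 5 higher in TE. Without the 25% of members with least mRNA, 1 was higher and 3 lower in TE. Past the first 100 codons, where fewer footprints remain, 19 genes were lower in footprints, and 13 were higher and 24 lower in TE. In the first 50% of the codons 5 were higher in TE. In the last 50%, 7 were lower in footprints, and 35 were higher and 16 lower in TE. Among the genes past 2-fold in footprints, the footprint ratio changed sign for YFR052C-A and YGL088W only. For YFR052C-A this was in the last 50% of its codons (-0.55, from 1 footprint in AGG-QC and 2 in WT-URA). For YGL088W it was past the first 100 codons (-0.16, from 2 and 3), and both counts are too few to read a direction. The ratio of YGL088W also changed sign against AGG-OE (-0.51), and the cause was not tested. Genes with smaller footprint ratios changed sign too. Against AGG-OE the low-TE genes OST4, SNA2 and AIM19 had footprint ratios of 0.17, 0.32 and 0.13, with TE ratios of -0.14, -0.41 and -0.93. No list median past 0.3 changed sign under any of these settings.

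With 1 library per strain and assay, no difference has a replicate error, and culture, plasmid level and library preparation cannot be told apart from the tRNA gene. No paired analysis was possible because each group has 1 sample. The footprint depth of AGG-QC, the lower of the 2, limits the precision of the ratios, and the depth of the mRNA signal is unknown.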

Other observations

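The 51 other lists with 5 or more members had medians between -0.25 and 0.19 in mRNA, between -0.18 and 0.28 in footprints and between -0.17 and 0.37 in TE. The proteasome, which degrades marked proteins, had the highest footprint median of these, 0.28 over 37 members, with 0.15 in mRNA. RNA polymerase III and its factors, which transcribe tRNA genes, had medians of -0.25 in mRNA, 0.10 in footprints and 0.33 in TE over 20 members. Genes of DNA replication and repair had -0.19, 0.17 and 0.37 over 33 members. Subunits of the respiratory chain and ATP synthase had 0.19, 0.04 and -0.12 over 40 members. Mitochondrial ribosomal proteins had medians of 0.07, 0.08 and -0.01 over 71 members. The cytosolic tRNA synthetases had -0.14, -0.09 and 0.09 over 22 members, and the factors that sense and rescue stalled ribosomes -0.08, 0.11 and 0.26 over 27. Set against their length bins, the TE medians were 0.10 for RNA polymerase III, 0.11 for DNA replication and repair and 0.05 for stalled ribosomes. Against all members they were 0.23, 0.27 and 0.16. The respiratory chain and mitochondrial ribosomal lists were also nearer to other genes within length bins. The proteasome (0.04 against 0.02) and the synthetases (-0.08 against -0.01) were not. In none of the lists named here was a member past 2-fold in mRNA or footprints.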
